A study of Mus musculus with 12 samples.

Results

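The 7 genes described here are the mouse Fc receptor genes Fcgr1, Fcgr2b, Fcgr3, Fcgr4 and Fcgrt and the signalling chain genes Fcer1g and Tyrobp, 7 of the 31053 genes counted in the series. They were chosen by symbol, not by level, and all 7 were found in each of the 3 deposited matrices. RNA of single mouse cells was sequenced from transcript 3' ends (10x Chromium, v3 kit) in 12 samples, 4 from tracheal allografts, 4 from native tracheas and 4 from spleens. By its title, the study concerns phagocytes of the monocyte lineage in transplant airway fibrosis, so the phagocyte classes carry the main comparison. The labels give no strain, age, sex, treatment or time after transplantation, and name no animal from which a sample came. The files hold 1 matrix per source, whose barcodes carry no mark of the 4 samples. Each source is therefore 1 pooled library, no difference was tested, and every interval below is a 95% interval of counting error that leaves out any spread between animals.

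Fc gamma receptors bind the constant part of immunoglobulin G and tell a phagocyte that a cell or particle has been coated by antibody. Fcgr1, Fcgr3 and Fcgr4 are activating: they carry no signalling motif of their own and rest on the common gamma chain Fcer1g, whose immunoreceptor tyrosine-based activation motif (ITAM) recruits the kinase Syk. Fcgr2b is the inhibitory receptor, which carries an inhibitory motif in its own tail and recruits the phosphatase Inpp5d. Fcgrt encodes the heavy chain of the neonatal Fc receptor, which pairs with beta 2-microglobulin and returns immunoglobulin G from endosomes to the cell surface. Tyrobp (DAP12) is a second ITAM chain, used by Trem2, by other myeloid receptors and by activating receptors of natural killer (NK) cells.

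By GENCODE M21 (build mm10), 4 of the 7 genes lie within 275.7 kb of chromosome 1, from base 170958617 to base 171234365. Fcgr2b (170958617 to 170976547, minus strand), Fcgr4 (171018920 to 171029761, plus strand) and Fcgr3 (171051174 to 171064935, minus strand) are direct neighbours, and Fcer1g (171229572 to 171234365, minus strand) closes the stretch. Fcgr1 lies alone on chromosome 3 (96282909 to 96293969, minus strand). Fcgrt (45092990 to 45103851, minus strand) and Tyrobp (30413760 to 30417585, plus strand) are far apart on chromosome 7, and Tyrobp ends 126 bases from Hcst, which encodes another adaptor chain. Reads of a 3' library fall near the ends of transcripts, where the receptors could be mistaken for each other. Of the 31-base words in the last 500 bases of their coding transcripts, 5.10% of those of Fcgr2b also occur in Fcgr3 and 0.521% of those of Fcgr3 in Fcgr2b. No such word of Fcgr1, Fcgr4, Fcgrt, Fcer1g or Tyrobp occurs in another of the 7 genes. Of those of Fcgr4, 3.40% occur in genes outside the 7.

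The promoters of Fcgr4 and Fcgr1, the activating receptor genes with the larger allograft ratios below, are shown beside that of Fcgrt, the gene with the opposite direction. Each runs from 250 bases before to 50 bases after the RefSeq start (GRCm38.p6), on the strand of the gene, 5′ to 3′. The regions are chr1:171018676-171018975 (plus strand) for Fcgr4, chr3:96293920-96294219 (minus strand) for Fcgr1 and chr7:45103773-45104072 (minus strand) for Fcgrt.
Fcgr4: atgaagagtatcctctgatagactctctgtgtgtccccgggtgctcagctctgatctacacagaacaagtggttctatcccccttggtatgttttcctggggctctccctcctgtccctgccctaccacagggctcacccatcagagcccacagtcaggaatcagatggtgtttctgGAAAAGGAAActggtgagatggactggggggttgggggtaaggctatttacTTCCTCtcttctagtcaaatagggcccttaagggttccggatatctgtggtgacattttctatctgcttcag
Fcgr1: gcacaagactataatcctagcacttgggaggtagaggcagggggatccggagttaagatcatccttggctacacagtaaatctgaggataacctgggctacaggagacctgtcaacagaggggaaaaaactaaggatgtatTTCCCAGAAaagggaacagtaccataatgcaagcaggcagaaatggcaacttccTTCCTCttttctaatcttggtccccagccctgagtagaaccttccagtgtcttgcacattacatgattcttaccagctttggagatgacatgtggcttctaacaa
Fcgrt: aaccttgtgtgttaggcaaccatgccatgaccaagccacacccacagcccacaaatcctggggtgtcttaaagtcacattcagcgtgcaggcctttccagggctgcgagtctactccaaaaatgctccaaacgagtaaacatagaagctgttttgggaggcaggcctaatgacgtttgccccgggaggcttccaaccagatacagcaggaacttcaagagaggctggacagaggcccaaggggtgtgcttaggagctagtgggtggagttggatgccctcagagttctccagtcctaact
Capitals mark matches to 3 motifs searched on both strands, with no overlap between matches. Fcgr4 holds GAAAAGGAAA, a match to the interferon-stimulated response element core (GAAA, any 2 bases, GAAA), whose first base is 73 bases before the start. Fcgr1 holds TTCCCAGAA, a match to the interferon-gamma activated site TTCNNNGAA, with its first base 109 bases before the start. Both also hold TTCCTC, the reverse complement of the ETS core GAGGAA used by PU.1, at 22 bases before the start in Fcgr4 and at 55 in Fcgr1. None of the 3 motifs was found in the Fcgrt window. Of the members whose promoters are not printed, Fcgr3 (ratio 1.08 below) holds the ETS core, and Fcgr2b (1.49) and Fcer1g (1.33) hold none of the 3. Among 32851 mouse promoters of the same 300-base length, 3.44% hold the first motif, 8.30% the second and 28.3% the ETS core, so these matches describe the letters and show no bound factor. Tyrobp is named without a promoter.

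The libraries held 4611 to 4856 barcodes, and 3864 allograft, 4115 native and 4570 spleen cells passed the cell filter, with medians of 4965, 6526 and 4428 unique molecular identifiers (UMIs, each 1 captured transcript end). Cells were placed in classes by lists of marker genes that hold none of the 7 members, which gave a class to 89.8%, 93.4% and 96.3% of the cells. The labels call the trachea cells mesenchymal progenitors, but macrophage-marker cells made up 55.5% of the allograft cells (2144) and 44.0% of the native cells (1809), and fibroblast-marker cells 0.932% (36) and 22.6% (929). Spleen was mostly B-cell-marker (2210) and T-cell-marker cells (1101), with 77 macrophage-marker cells. Levels are CPM, the UMIs of a gene scaled to the same total of summed UMIs in each class and library, given for the 21 pools of a class and library with 50 or more cells. Pairs of libraries shared 4 to 7 barcodes.

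Fcgr4 was the Fc receptor gene that differed most between allograft and native macrophage-marker cells. In cells of the allograft it stood at 254 CPM (246 to 262, 4288 UMIs), against 29.5 CPM (26.5 to 32.7, 366 UMIs) in those of the native trachea, a ratio of 8.60 (7.74 to 9.61). Fcgr1, the high-affinity receptor, reached 190.2 CPM (184 to 197) in the allograft, against 103.1 CPM (97.5 to 109) in native trachea, a ratio of 1.84 (1.73 to 1.97). Both levels were higher in the allograft by more than counting error, and that of Fcgr4 by far the more. Fcgr3, a low-affinity activating receptor, was nearly level at 527 CPM (516 to 538) in allograft and 486 CPM (474 to 499) in native cells, a ratio of 1.08 (1.05 to 1.12).

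The inhibitory receptor gene Fcgr2b was also higher in the allograft macrophage-marker cells, at 277 CPM (269 to 285) against 186.5 CPM (179 to 194) in the native ones, a ratio of 1.49 (1.41 to 1.56). Fcgrt ran the other way. It stood at 140.1 CPM (134 to 146) in allograft and 401 CPM (390 to 413) in native cells, 2.86-fold lower in the allograft (2.73 to 3.01). Both chains were higher in the allograft within 2-fold, by more than Fcgr3 and less than Fcgr2b. Fcer1g had 2565 CPM (2541 to 2589) in allograft and 1935 CPM (1911 to 1960) in native cells, a ratio of 1.33. Tyrobp had 2008 CPM (1986 to 2029) and 1539 CPM (1517 to 1561) in the same order, a ratio of 1.30. Thus 1 of the 7 genes was 2-fold or more higher and 1 was 2-fold or more lower. Of the 11814 genes with 30 or more UMIs in these cells, 5.87% passed 2-fold upward in the allograft and 7.90% downward, and the ratio of Fcgr4 lay at percentile 99.4 of them and that of Fcgrt at percentile 4.503.

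**Figure D1:**
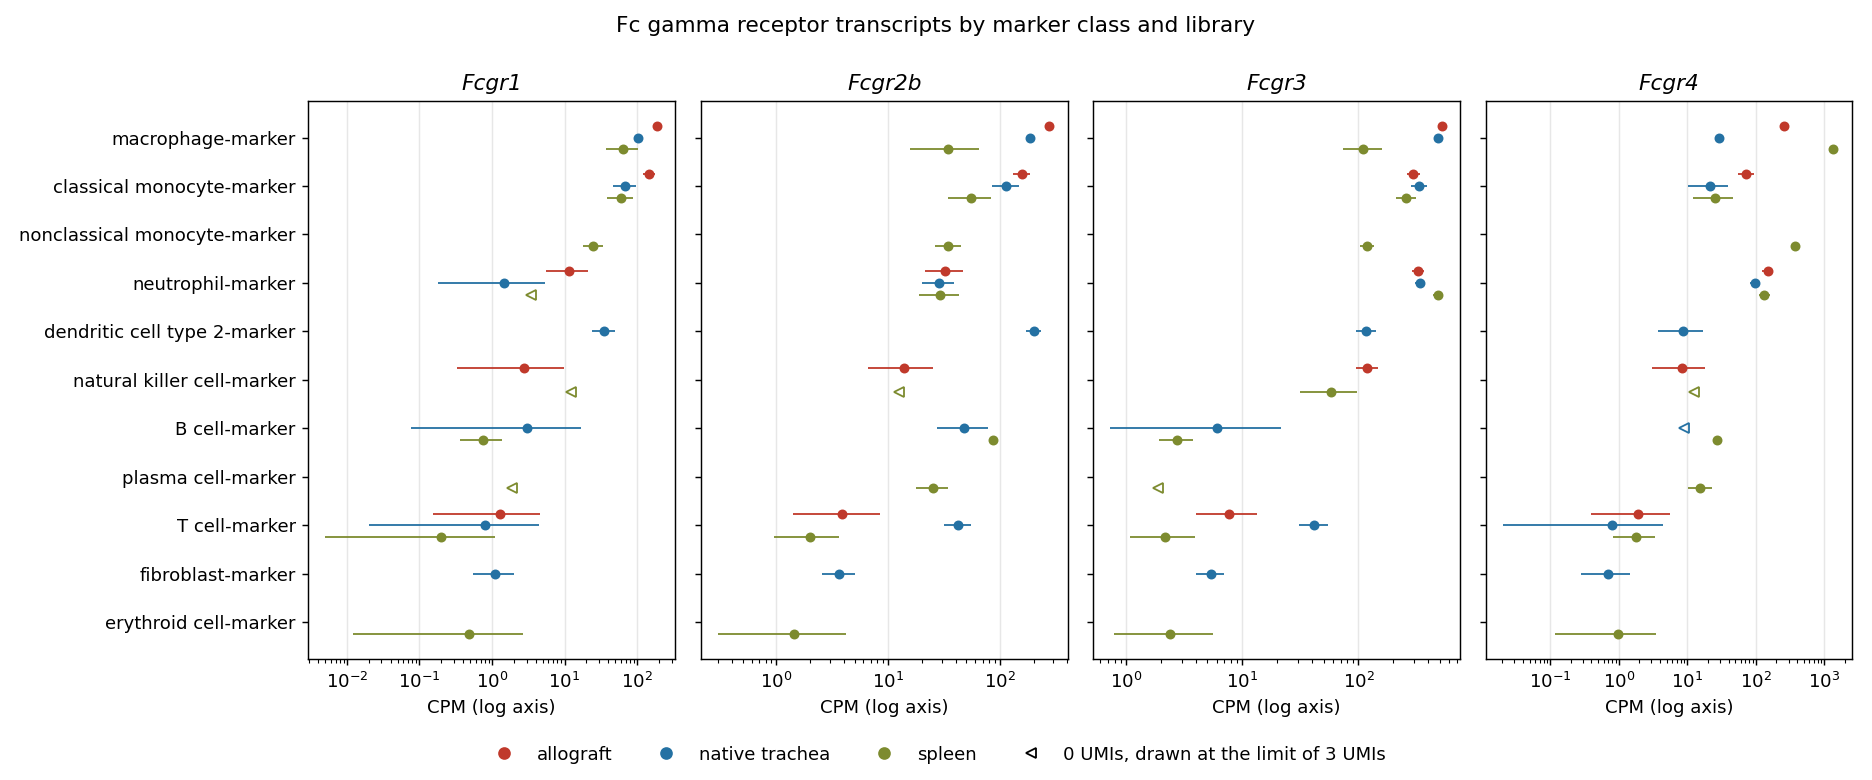
CPM (log axis) of the 4 Fc gamma receptor genes in each marker class, with points for the 3 libraries and bars for 95% Poisson intervals; an open triangle marks 0 UMIs, drawn at the limit of 3 UMIs. Fcgr4 stands at 254 CPM in allograft and 29.5 CPM in native macrophage-marker cells, while Fcgr3 stands at 527 and 486 CPM.

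The same directions appeared in the share of cells that carried a UMI once every cell was thinned to 1500 UMIs. A UMI of Fcgr4 was found in 29.3% of 2031 allograft macrophage-marker cells (27.3 to 31.3) and in 3.20% of 1750 native ones (2.43 to 4.14). For Fcgr1 the shares were 23.7% in allograft and 13.5% in native cells, and for Fcgr2b 32.1% and 24.1%. Fcgr3 was found in 49.6% of allograft and 49.3% of native cells, and Fcgrt in 20.8% (19.0 to 22.6) and 41.8% (39.4 to 44.1). Fcer1g (94.7% and 90.8%) and Tyrobp (89.7% and 84.5%) were found in nearly every cell of both libraries. Without thinning, Fcgr4 was found in 57.0% of allograft and 13.4% of native macrophage-marker cells (medians 6697 and 6386 UMIs). T-cell-marker cells, which should lack it, gave 0.565% and 0.510% (medians 3886 and 3960 UMIs). The UMIs were spread over many macrophage-marker cells: the 5 cells richest in Fcgr4 held 2.75% of its allograft UMIs.

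**Figure D2:**
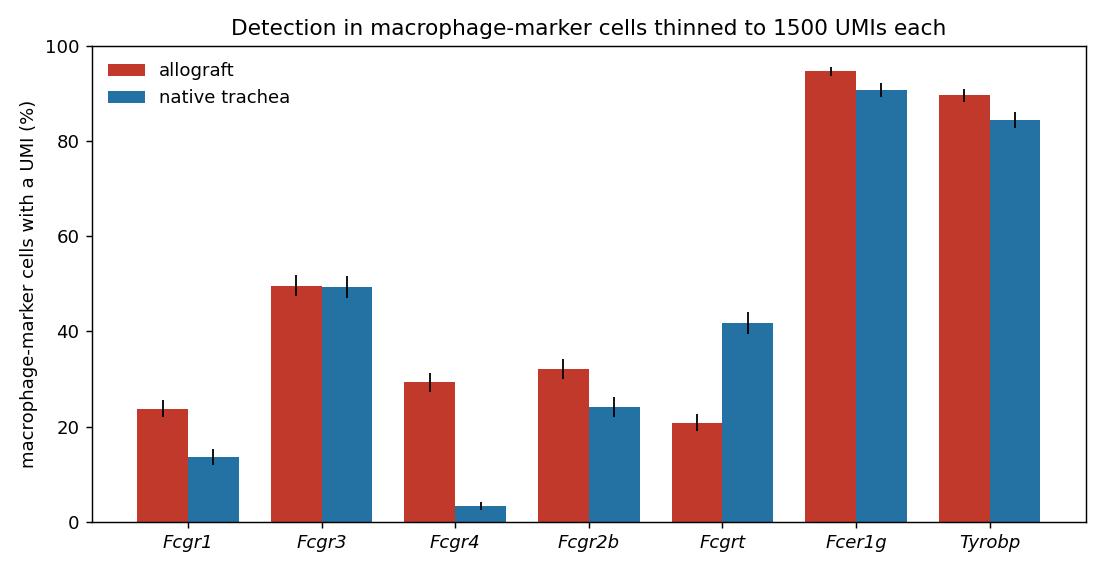
Share of macrophage-marker cells with a UMI of each gene (per cent) after thinning to 1500 UMIs per cell, for the 2031 allograft and the 1750 native cells, with exact binomial 95% intervals. The bars of Fcgr4 stand at 29.3% and 3.20%, those of Fcgrt at 20.8% and 41.8%, and those of Fcgr3 almost level.

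The macrophage-marker classes of both trachea libraries expressed all 10 of their markers, among them the complement gene C1qa at 3743 CPM in allograft and 4808 CPM in native cells. Other cells' markers were low but present in them. The 12 neutrophil markers summed to 204 CPM in allograft and 391 CPM in native cells, the 8 nonclassical monocyte markers to 279 and 189 CPM, and the 8 classical monocyte markers to 1411 and 1654 CPM, with no marker of the 3 lists at 0. The interferon-induced chemokine gene Cxcl9 stood at 376 CPM in allograft and 10.96 CPM in native cells. The part of any of these in the levels of the receptors was not tested.

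Although single receptors differed, the sum of the 3 activating receptors against the inhibitory one hardly did. A UMI counts 1 transcript end whatever the gene's length, so the UMIs of the 4 genes can be added, although capture may differ between them. Fcgr1, Fcgr3 and Fcgr4 made up 77.8% of the 4 genes' UMIs in allograft macrophage-marker cells (77.2 to 78.4) and 76.8% in native ones (76.0 to 77.7). Within that sum the makeup changed. Fcgr4 gave 20.3% of the UMIs in the allograft and 3.66% in native trachea, and Fcgr3 gave 42.2% and 60.4%. At 1500 UMIs per cell, 23.3% of allograft and 15.3% of native cells carried UMIs of an activating gene and of Fcgr2b together, 44.7% and 41.3% of an activating gene without Fcgr2b, and 8.81% and 8.80% of Fcgr2b without an activating gene.

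Classes differed far more from each other in this balance, and so did spleen from trachea within the macrophage-marker class. The 77 spleen macrophage-marker cells had an activating share of 97.8% (95.8 to 99.0), with 86.4% from Fcgr4 alone. In classical monocyte-marker cells the share was 76.6% in allograft, 78.7% in native trachea and 86.2% in spleen. Activating UMIs were 93.8% of the sum in allograft neutrophil-marker, 93.9% in native and 95.5% in spleen neutrophil-marker cells. They made up 93.8% in spleen nonclassical monocyte-marker cells, where Fcgr4 alone gave 67.9%. At the other end they were 44.4% (39.0 to 49.9) in native dendritic cell type 2-marker cells, and 26.2% (24.1 to 28.5) in spleen B-cell-marker cells, the class in which Fcgr2b is known as the main Fc gamma receptor. Fcgr4 gave 23.3% of the sum in those B-cell-marker cells, from few of the cells.

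Detection of Fcgr4 and Fcgr1 went together within macrophage-marker cells. In thinned allograft macrophage-marker cells, Fcgr4 was found in 42.7% of those with an Fcgr1 UMI and in 25.1% of those without, and in native cells in 7.17% and 2.58%. With Fcgr2b in place of Fcgr1 the shares were 32.7% and 27.7% in the allograft, and 1.43% and 3.76% in native cells. With Fcgr3 they were 33.5% and 25.1% in the allograft, and 2.55% and 3.83% in native cells. With Fcgrt they were 33.9% and 28.1% in the allograft, and 2.46% and 3.73% in native cells. The native shares rest on few cells: 17 carried both Fcgr1 and Fcgr4, and 6 both Fcgr2b and Fcgr4. Equal numbers of UMIs per cell do not make the cells equal in state, so these are descriptions over cells of 1 library.

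Genes of known macrophage states were used to divide the macrophage-marker cells: "with" means 2 or more UMIs of the state's genes, "without" means 0, and cells with 1 UMI were left out. Among native cells, the 919 with the resident macrophage genes Lyve1 and Cd163 held Fcgrt at 648 CPM, against 143 CPM in the 693 without, a ratio of 4.53 (4.19 to 4.91). Fcgr4 had the reverse pattern, at 17.6 CPM with and 43.8 CPM without these genes, 2.49-fold lower (1.97 to 3.18). Fcgr3 was higher with them, at 586 against 388 CPM, and Fcgr1 was close, at 101 against 108 CPM. The allograft held fewer than 50 cells with these genes, and 95.8% of its class was without.

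Between cells without Lyve1 and Cd163, the difference in Fcgrt between the libraries was nearly gone. It stood at 129 CPM in 2053 allograft and 143 CPM in 693 native cells, a ratio of 0.902 (0.829 to 0.983), not past 2-fold. Fcgr4 in the same cells remained at 255 CPM in allograft and 43.8 CPM in native cells, a ratio of 5.80 (5.08 to 6.68). Fcgr1 was at 190.4 and 108 CPM (ratio 1.76), Fcgr2b at 275 and 150.3 CPM (1.83), and Fcgr3 at 528 and 388 CPM (1.36). These values describe cells chosen by their RNA and compare no replicates.

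Within the allograft, the 781 cells with the scar-associated genes Gpnmb, Spp1 and Mmp12 held less Fcgr4 than the 985 without, at 177 and 341 CPM, 1.93-fold lower (1.80 to 2.06). Fcgr1 was 1.74-fold lower with these genes (138 and 240.4 CPM) and Fcgrt 2.41-fold lower (81.0 and 195 CPM), while Fcgr3 was higher (567 and 486 CPM, ratio 1.17). In native trachea the order of Fcgr4 was the opposite, at 67.6 CPM in 149 cells with and 23.1 CPM in 1512 without. The allograft ratio of Fcgr4 over native trachea was thus 2.61 (2.14 to 3.24) among cells with the scar-associated genes and 14.7 (12.9 to 17.0) among cells without. Median depth differed between these sets, at 9465 UMIs with and 5519 without in the allograft, and its part was not tested.

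Allograft cells with UMIs of Arg1 or Nos2, or with Cxcl9, held more Fcgr4 than those without. The 165 allograft cells with the arginine-using genes Arg1 and Nos2 had 462 CPM, against 226 CPM in the 1899 without, a ratio of 2.05 (1.90 to 2.21). Fcgrt was 2.32-fold lower in them (64.5 and 150.3 CPM), and Fcgr3 higher (748 and 495 CPM, ratio 1.51). The 350 allograft cells with Cxcl9 had 400.1 CPM of Fcgr4, against 200.4 CPM in the 1616 without, a ratio of 1.997 (1.87 to 2.13), and Fcgr1 at 244 and 168 CPM (1.45). Fcgr2b did not follow Cxcl9 (272 and 279 CPM). Among cells without Cxcl9 UMIs, Fcgr4 was at 200.4 CPM in allograft and 29.4 CPM in native cells, a ratio of 6.82 (6.10 to 7.66). The part of these states in the difference between the libraries was not tested. Cells with these genes were again deeper, with medians of 10022 and 9816 UMIs against 6472 and 5894.

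**Figure D3:**
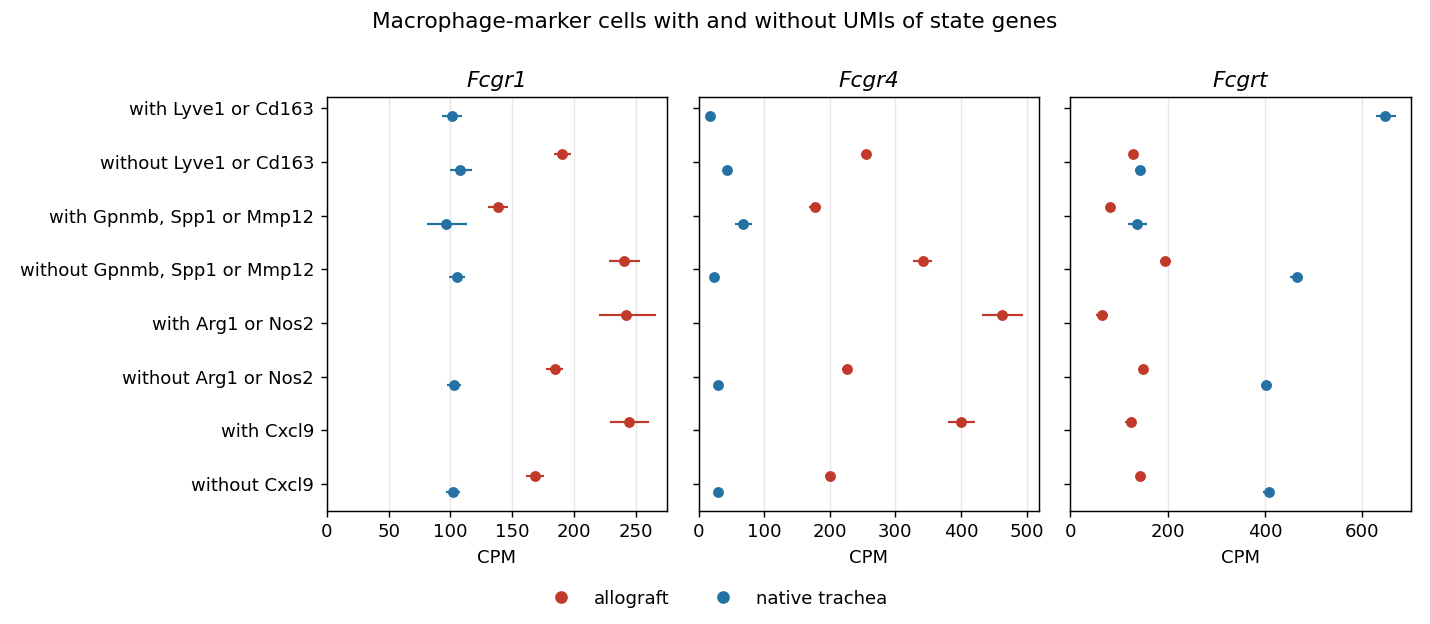
CPM of Fcgr1, Fcgr4 and Fcgrt in macrophage-marker cells with 2 or more UMIs (with) or 0 UMIs (without) of the named state genes, by library, with 95% Poisson intervals. Native Fcgrt stands at 648 CPM with Lyve1 and Cd163 and at 143 CPM without, and allograft Fcgr4 at 177 CPM with the scar-associated genes and at 341 CPM without.

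In classical monocyte-marker cells, the precursors of many tissue macrophages, Fcgr1 and Fcgr4 were again the genes that differed. Fcgr1 stood at 147 CPM in 120 allograft cells and 68.9 CPM in 53 native cells, a ratio of 2.11 (1.44 to 3.25). Fcgr4 stood at 72.2 CPM (61 UMIs) in allograft and 21.5 CPM (10 UMIs) in native cells, a ratio of 3.22 (1.71 to 7.35). Fcgr2b (ratio 1.37), Fcgr3 (0.892), Fcgrt (0.804), Fcer1g (1.04) and Tyrobp (0.891) stayed within 2-fold. So the allograft level passed 2-fold upward for 2 of 7 members and downward for 0, where 7.08% of 4744 genes were higher and 1.83% lower. These counts rest on few cells: the 5 richest held 47.5% of the allograft and 80.0% of the native UMIs of Fcgr4. The number called higher was 0 to 2 under the alternatives, with the log2 ratio of Fcgr1 (1.08) at 0.49 after thinning. That number leaves out members with too few UMIs. The log2 ratio of Fcgr4 was 1.47 to 1.75 under the alternatives in which it had enough. Spleen classical monocyte-marker cells had 60.0 CPM of Fcgr1 and 25.0 CPM of Fcgr4.

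Neutrophil-marker cells held Fcgr3 and Fcgr4 with almost no Fcgr1. Fcgr4 stood at 149 CPM (124 to 177) in the allograft, 97.1 CPM (81.2 to 115) in native trachea and 133 CPM (110 to 160) in spleen, and the ratio of allograft over native was 1.53 (1.19 to 1.97). Fcgr3 was at 326 CPM in allograft, 339 CPM in native and 481 CPM (435 to 529) in spleen neutrophil-marker cells. Fcgr1 had 10 UMIs in 487 allograft cells, 2 in 565 native cells and 0 in 229 spleen cells, which allows at most 3.47 CPM. Tyrobp was higher in neutrophil-marker cells than in any other class, at 6703 CPM in allograft, 6922 CPM in native trachea and 5131 CPM in spleen. None of the 5 members with 30 or more UMIs was 2-fold apart between allograft and native trachea, where 4.11% of 5036 genes were higher and 2.62% lower.

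**Figure D4:**
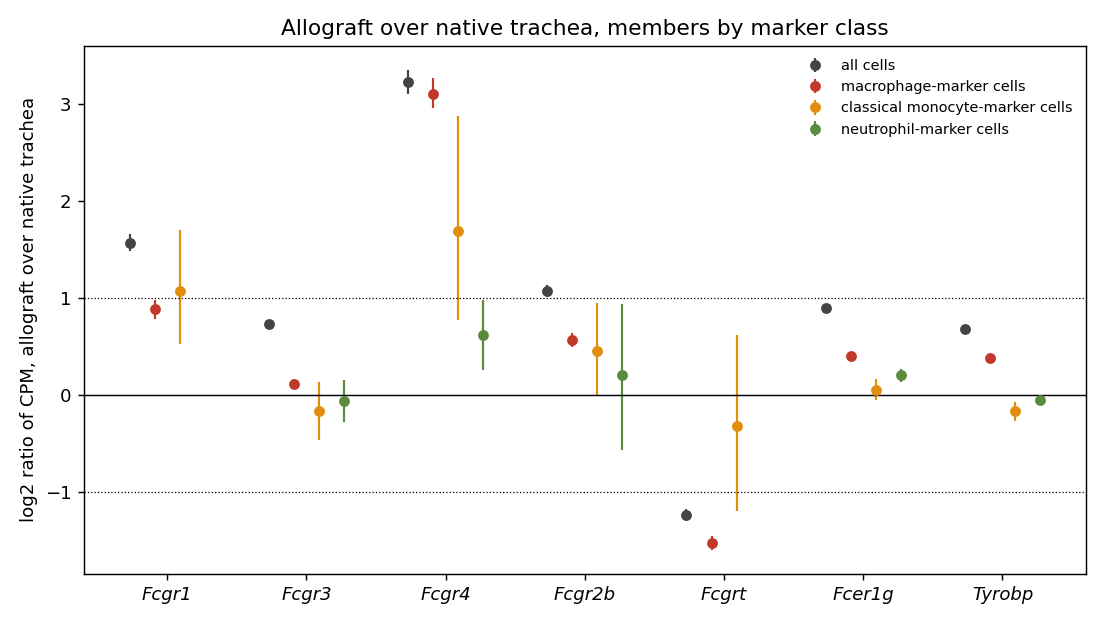
Log2 ratio of CPM, allograft over native trachea, of each gene in 4 marker classes, with 95% conditional binomial intervals and dotted lines at 2-fold. In macrophage-marker cells Fcgr4 lies at 3.104 and Fcgrt at -1.52 on the log2 scale, and the others lie between the lines.

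T-cell-marker cells should hold little of the Fc gamma receptor genes, and they give a background level for Fcgr1 and Fcgr4. They are no such background for the chains. Fcer1g stood at 134 CPM in allograft, 288 CPM in native and 15.8 CPM in spleen T-cell-marker cells, and Tyrobp at 93.4, 246 and 17.2 CPM. Fcgr1 had 2 UMIs in 354 allograft and 1 in 196 native cells, and Fcgr4 had 3 and 1. The 5 other genes were each 2-fold or more lower in the allograft, where 9.64% of 7623 genes were higher and 9.94% lower. Fcgr2b had 3.84 CPM (6 UMIs) in allograft and 42.2 CPM (53 UMIs) in native cells, and Fcgr3 had 7.68 CPM (12 UMIs) and 41.4 CPM (52 UMIs). In the native library 5 cells held 67.9% of the Fcgr2b and 67.3% of the Fcgr3 UMIs. With T-cell-marker cells that had no UMI of C1qa, C1qb, C1qc or Csf1r, 0 of the members was called 2-fold lower, as after thinning. The log2 ratio of Fcer1g turned to 0.77 in them, against -1.10 in all. Members left with too few UMIs are not counted, so the 0 does not show that every difference was gone. Under other filters, doublet treatments, scalings and gates with enough UMIs, Fcgr2b stayed at -3.45 to -2.78. Fcgr3 stayed at -2.43 to -1.67 and Fcgrt at -1.93 to -1.39, while Fcer1g and Tyrobp reached -0.19 and -0.46 under an alternative. Whether doublets or macrophage RNA gave the members' UMIs in T-cell-marker cells was not tested. The 10 macrophage markers summed to 695 CPM in allograft and 407 CPM in native T-cell-marker cells.

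Summed over all cells, the trachea libraries differed in the same directions, and macrophage-marker cells were 55.5% of the allograft and 44.0% of the native cells. Fcgr4 stood at 188 CPM in allograft and 20.1 CPM in native cells (ratio 9.33), Fcgr1 at 140.9 and 47.4 CPM (2.97), Fcgr2b at 210.3 and 99.9 CPM (2.11) and Fcgr3 at 401 and 242 CPM (1.66). Fcgrt stood at 110.2 and 259.6 CPM, 2.36-fold lower in the allograft, and the ratios of Fcer1g and Tyrobp were 1.86 and 1.61. Hence 3 members passed 2-fold upward and 1 downward, where 6.45% of 14361 genes were higher and 17.0% lower. As a mean over cells and after thinning 2 members passed upward: the log2 ratio of Fcgr2b, 1.07 in the sum, was 0.78 and 0.83, and that of Fcgr4, 3.22 in the sum, was 2.58 as a mean over cells. Macrophage-marker cells held 87.0% to 89.4% of the UMIs of the 4 Fc gamma receptor genes in the allograft. In such a sum, more cells of a class and more RNA per cell cannot be told apart.

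Fcgr4 reached its highest levels in spleen. It stood at 1322 CPM (1187 to 1469) in 77 spleen macrophage-marker cells and at 376 CPM (348 to 406) in 439 spleen nonclassical monocyte-marker cells, named for markers of patrolling monocytes, in which the receptor is a known feature. The first value rests on few cells: 49.4% of them carried an Fcgr4 UMI, 5 cells held 47.1% of the UMIs, and without those 5 the level was 772 CPM. Markers of erythroid cells summed to 25864 CPM in that pool, with 1 of the 6 at 0, and those of nonclassical monocytes to 1106 CPM with none at 0; their part was not tested. In the nonclassical monocyte-marker cells the 8 markers of that class summed to 5999 CPM and the 12 neutrophil markers to 15055 CPM, none at 0, among them S100a8 at 4488 CPM; spleen neutrophil-marker cells held S100a8 at 95027 CPM and Fcgr4 at 133 CPM, and their part was not tested. Of the nonclassical monocyte-marker cells, 61.3% carried a UMI and the level without the 5 richest cells was 337 CPM. Allograft macrophage-marker cells, at 254 CPM, came next in order. Over the 21 pools Fcgr4 was at 0 UMIs in native B-cell-marker cells, which allows up to 8.99 CPM, and in spleen NK-marker cells, which allows up to 12.4 CPM. Between neighbours in the order, 16 of the 20 pairs had intervals that overlap.

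Fcgr2b had its own distribution. After the macrophage-marker cells of the allograft it was highest in native dendritic cell type 2-marker cells (84 cells), at 199 CPM (172 to 230.5), with a UMI in 82.1% of them, and its interval there overlapped that of native macrophage-marker cells. In spleen 81.9% of its UMIs lay in B-cell-marker cells, at 86.2 CPM (81.3 to 91.4), with a UMI in 35.9% of the cells, against 0.817% of spleen T-cell-marker cells at a like depth (medians 4706 and 4297 UMIs). The 142 spleen B-cell-marker cells with 3 or more germinal centre markers held 36.9 CPM (29.1 to 46.2), against 96.9 CPM (90.2 to 104) in those with none. The share of cells with a UMI was 35.9% and 34.9% in these sets, whose medians were 10804 and 4408 UMIs. Fcgr4 in spleen B-cell-marker cells came to 27.2 CPM, but a UMI was found in 3.08% of the cells and 5 cells held 50.4% of the UMIs, without which the level was 13.6 CPM. With mitochondrial and ribosomal genes left out of the total, Fcgr2b in these cells came to 135.9 CPM and Fcgr4 to 42.9 CPM.

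Fcgrt was also high outside leukocytes. In 929 native fibroblast-marker cells it stood at 240.1 CPM (231 to 250), with a UMI in 84.7% of them. At 1500 UMIs per cell, a UMI was found in 28.7% of native fibroblast-marker and 3.65% of native T-cell-marker cells. In the fibroblast-marker cells the 4 Fc gamma receptor genes were at 0.706 to 5.35 CPM, Fcer1g at 21.4 CPM and Tyrobp at 17.96 CPM. Fibroblast-marker cells gave 30.2% and macrophage-marker cells 63.3% of the native library's Fcgrt UMIs. Spleen macrophage-marker cells had 144 CPM (102 to 198), level with the 140.1 CPM of the allograft ones. In neutrophil-marker cells Fcgrt was at 6.93 CPM in allograft, 11.1 CPM in native trachea and 4.63 CPM in spleen.

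The chains were shared by all myeloid classes and by NK-marker cells. Fcer1g had 3711 CPM in allograft and 3216 CPM in native neutrophil-marker cells, 3644 CPM in spleen nonclassical monocyte-marker cells and 4084 CPM (3843 to 4336) in spleen macrophage-marker cells. In NK-marker cells, which signal through both chains, Fcer1g stood at 1573 CPM in 157 allograft and 2193 CPM in 69 spleen cells, and Tyrobp at 1931 and 2851 CPM. Fcgr3, the antibody receptor of NK cells, stood at 118 CPM (94.5 to 146) in allograft and 57.9 CPM (31.7 to 97.2) in spleen NK-marker cells, a ratio of 1.98 (1.15 to 3.89), not past 2-fold. The activating receptor gene Ncr1, itself among the markers that define the NK class, was at 74.2 and 1192 CPM in these classes. They thus differ in more than the members. Spleen T-cell-marker cells had 15.8 CPM of Fcer1g and 17.2 CPM of Tyrobp.

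**Figure D5:**
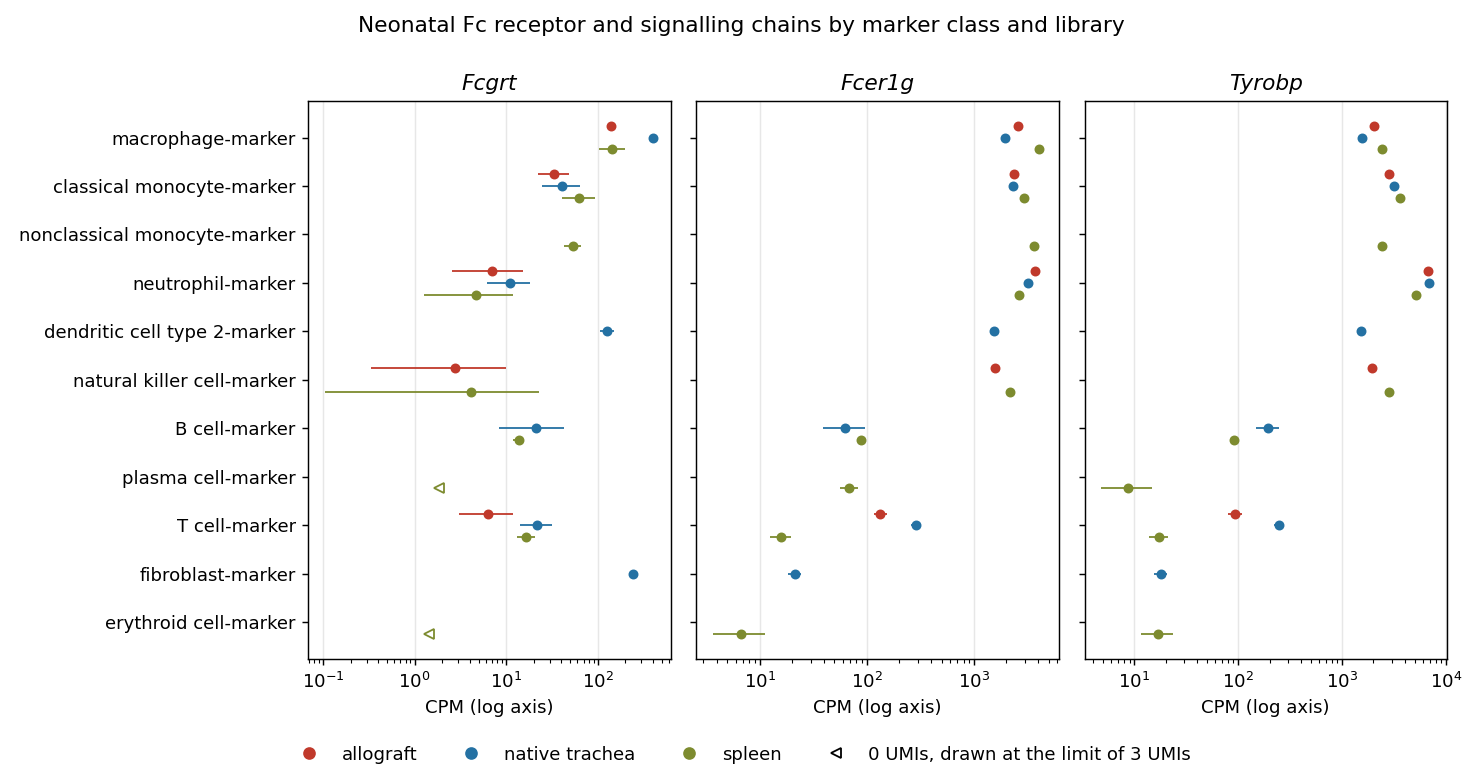
CPM (log axis) of Fcgrt, Fcer1g and Tyrobp in each marker class, with points for the 3 libraries and bars for 95% Poisson intervals; open triangles mark 0 UMIs, drawn at the limit of 3 UMIs. Fcgrt stands at 401 CPM in native macrophage-marker and 240.1 CPM in native fibroblast-marker cells, and both chains stand above 1500 CPM in every myeloid and NK-marker pool.

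Across the 21 pools, likeness was measured as Pearson's r of log2(CPM + 1) among 6778 genes, as a description of pools that share 3 libraries. The nearest genes to Fcer1g were Itgam (0.97), Tyrobp (0.96) and Fes (0.96), to Tyrobp Itgam (0.98), Fcer1g (0.96) and Fes (0.95), and to Fcgr3 Itgam (0.94), Tyrobp (0.94) and Fes (0.93). Fcgr1 was most like Aif1 (0.94), Ptpro (0.93) and Slamf8 (0.92), and Fcgr4 most like Siglece (0.90), Sirpb1a (0.87) and Lst1 (0.86). Fcgr2b was nearest to Ctsh (0.91), H2-Eb1 (0.87) and Fgd2 (0.86). Among the genes most like Fcgrt were Pros1 (0.93) and Cmtm3 (0.92). The lowest values between members were those of Fcgrt with Fcgr4 (0.291), Tyrobp (0.295) and Fcer1g (0.332), too close to rank.

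The other genes of the pathway were counted in macrophage-marker cells, where the median log2 ratio of all genes tested was 0.09, and 5.87% of them were 2-fold or more higher and 7.90% lower. Of 22 tested genes listed as receptors that pair with Fcer1g or Tyrobp, 10 passed 2-fold upward in the allograft and 2 downward, with a median of 0.82. That list also holds the integrin genes Itgam, Itgb2 and Itgax, so its counts are not of pairing receptors alone. Clec4n, the lectin receptor Dectin-2, stood at 234 CPM in allograft and 41.0 CPM in native cells (5.70-fold), and the integrin gene Itgax at 174 and 42.9 CPM (4.06-fold). Trem2, a lipid receptor that signals through Tyrobp, stood at 494 and 176 CPM (2.80-fold). Siglech, a marker of plasmacytoid dendritic cells, had 0.355 CPM in allograft and 55.2 CPM in native cells. Itgax and Siglech were also markers of dendritic cell classes in the gating, so the gate bears on their levels here. Clec6a and Clec7a were not analysed here.

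Downstream of the chains, 2 of 23 tested kinases and adaptors were 2-fold or more higher and 0 lower (median 0.29), close to the 5.87% of all genes, among them the Src family kinase gene Fgr at 55.5 CPM in allograft and 19.6 CPM in native cells (2.83-fold). Of 22 phosphatases and inhibitory receptors 3 were higher and 0 lower (median 0.49), with Cd72 at 322 and 93.1 CPM (3.45-fold). Of 6 tested other adaptor chains 1 was higher and 0 lower (median -0.02). Of the 2 tested other Fc receptor genes 1 was higher and 1 lower, the lower one being Fcrls, an Fc receptor-like gene of macrophages, at 220.3 CPM in allograft and 524 CPM in native cells (2.38-fold lower). Among 5 tested genes listed as partner and trafficking genes of the neonatal Fc receptor 1 was higher and 1 lower (median -0.26). The higher one was Tapbp, a peptide-loading gene and no subunit of that receptor, at 446 and 210.4 CPM (2.12-fold higher). Among 4 tested immunoglobulin heavy chain genes 2 were higher and 0 lower (median 0.60), with no member at 50 CPM and 2-fold apart. These lists were chosen with earlier results of the data known, and their medians are descriptions.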

How the data were processed

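Single-cell 3' libraries of 12 samples from 3 sources were analysed. The deposited values are raw UMI counts, which the authors obtained with Cell Ranger 3.1.0 on mm10, per the file headers and the submitters' processing notes. The annotation release was not given in the sources used here. Each source has 1 matrix with no map from cells to its 4 samples.

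Cells needed 500 or more genes and at most 20% mitochondrial UMIs. Scrublet (scanpy 1.11.5) marked 31, 43 and 9 barcodes as doublets (allograft, native, spleen), 0.672%, 0.930% and 0.185% of them, while loading predicts 3.69%, 3.70% and 3.88%. The called share lay far below the expected one in all 3 libraries, most of all in spleen, so most expected doublets were left in each. Of 19 classes, a cell joined the class with the highest share of its markers detected. It needed 3 or more of those markers and a lead of 10 percentage points. In 262, 187 and 99 cells with 3 or more markers of a class, a lead existed but fell short of 10 points. These cells got no class, and cells that passed the limit narrowly were not counted. A class name rests on these markers alone.

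UMIs were summed per class and library. CPM carry exact Poisson intervals, shares of cells exact Clopper-Pearson intervals, and ratios (0.5 UMI added) exact conditional binomial ones, all at 95% and for counting error only (scipy 1.17.1). The limit beside 0 is 3 counts. A gene with 30 or more UMIs was tested against a 2-fold difference, with no p-value, since each group is 1 library. Thinning to 1500 UMIs left out 350, 186 and 141 cells. The interval computation was tested on simulated data.

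The genes named are the 7 members, up to 4 genes per list with 30 or more UMIs, 50 CPM or more and a 2-fold difference, and the 3 genes most like each member, of which 1 is not reported here. Fcrls and the other list genes follow this rule; C1qa, S100a8, Cxcl9 and Ncr1 were chosen after their values were seen. Members, lists, markers and gates were chosen with earlier results of these data known. Positions come from GENCODE M21 (30934 of 31053 identifiers matched, 7 of 7 members) and promoters from RefSeq (6 of 7 members). Alternatives were other cell filters, doublet treatments, scalings, thinning, gates, and sets of cells left out. Scripts ran in Python 3.11.15 with pandas 2.3.3, numpy 2.4.6 and matplotlib 3.10.9.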

Additional observations from a re-analysis of the deposited data

Results flagged for a closer look

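For Fcgr2b, Fcgr3, Fcer1g and Tyrobp, the ratio of allograft over native trachea lay above 1 in some marker class and below 1 in another. Each lay beyond its counting interval, which is narrow where UMIs are many, so small ratios pass. How many of all genes do the same was not counted, so nothing particular to the members is read from it. For Fcgr2b, Fcgr3 and Fcer1g, the side below 1 beyond its interval was T-cell-marker cells alone. The log2 ratio of Fcgr2b was 0.57 in macrophage-marker and -3.36 in T-cell-marker cells, and that of Fcgr3 was 0.11 and -2.39 in the same classes, the first of which changed sign as a mean over cells. Fcer1g stood at 0.41 in macrophage-marker, 0.21 in neutrophil-marker and -1.1 in T-cell-marker cells. Tyrobp stood at 0.38 in macrophage-marker, -0.17 in classical monocyte-marker and -1.4 in T-cell-marker cells. The T-cell-marker values rest on few cells and on the UMIs described with them above.

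Within macrophage-marker cells, some ratios of cells with a state's genes over cells without them had opposite signs in the trachea libraries. With the scar-associated genes, the log2 ratio of Fcgr3 was 0.22 in allograft and -0.54 in native trachea, and that of Fcgr4 was -0.95 in allograft and 1.55 in native trachea. With the spleen macrophage genes Cd5l and Vcam1, the log2 ratio of Fcgrt was 0.73 in allograft and -0.72 in native trachea, and that of Fcgr2b was 0.2 and -0.5 in the same order. For Fcgr3 it was 0.11 in allograft and -0.16 in native trachea, and for Tyrobp -0.06 in allograft and 0.12 in native trachea. With 1 library per source, none of these differences was tested.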

How the results depend on the processing

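Of 539 values recomputed under alternatives, 426 stayed within counting error or their 1.5-fold limit, 112 moved and 1 reversed. The reversed value is the log2 ratio of Fcer1g in T-cell-marker cells, -1.10 in all and 0.77 without cells with UMIs of C1qa, C1qb, C1qc or Csf1r. Only ratios 2-fold or more apart could be labelled reversed. Smaller ratios that changed sign were filed with the values that stayed or moved. Among them were Fcgr3 in macrophage-marker, Fcer1g in classical monocyte-marker, and Fcgr3 and Tyrobp in neutrophil-marker cells. In macrophage-marker cells the log2 ratio of Fcgr4 (3.104) was 3.57 after thinning, 2.54 without Lyve1 or Cd163 cells, 3.88 without Gpnmb, Spp1 or Mmp12 cells and 2.77 without Cxcl9 cells. That of Fcgrt (-1.52) was -1.41 without the cells of highest UMI count, -1.61 with median-of-ratios scaling, -1.35 as a mean over cells, -1.29 after thinning, -0.15 without Lyve1 or Cd163 cells and -1.25 without Gpnmb, Spp1 or Mmp12 cells. Without Lyve1 or Cd163 cells 0 members were 2-fold lower, and without Gpnmb, Spp1 or Mmp12 cells 2 were 2-fold higher. The activating share of allograft macrophage-marker cells (77.8%) was 76.8% as a mean over cells, 76.8% after thinning, 79.6% without Gpnmb, Spp1 or Mmp12 cells and 76.0% without Cxcl9 cells. That of native ones (76.8%) was 75.8% as a mean over cells, 75.8% after thinning and 78.2% without Lyve1 or Cd163 cells. Leaving out cells by these genes, the 5 richest cells, or T-cell-marker cells with macrophage UMIs was chosen after seeing the data; the cause of the changes was not tested beyond the sets' own construction. Median-of-ratios scaling moved all log2 ratios by -0.17 in classical monocyte-marker cells, -0.09 in macrophage-marker and neutrophil-marker cells, -0.04 in all cells and -0.01 in T-cell-marker cells. The log2 ratio of Fcgr3 in macrophage-marker cells lay between -0.00052 and 0.13 under other filters, doublet treatments, scalings, thinning and marker gates, and was 0.45 without Lyve1 or Cd163 cells and -0.09 without Gpnmb, Spp1 or Mmp12 cells, so no direction is given for it. Members called higher in classical monocyte-marker cells numbered 0 to 2, and those called lower in T-cell-marker cells 0 to 5. Members left with too few UMIs under an alternative were not counted, so the low ends do not show that every difference was gone. No paired analysis was possible because the 4 samples of a source are in 1 matrix and no result comes from a test. Depth limits the classes of few cells.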
